A study of Homo sapiens with 17 samples.

Results

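The genes that build the ribosome were followed in YB5 cells exposed to toyocamycin, an adenosine analog made by Streptomyces. The list holds 59 genes of nucleolar, rRNA processing and RNA polymerase I initiation factors, chosen by name, with earlier results of these data known. All 59 were found by symbol among the 19141 genes of the count table, and all 59 passed the filter on low counts. YB5 is a derivative of the human colon cancer line SW48 that carries 1 insertion of a silenced GFP gene under the CMV promoter, so every result comes from a single engineered line. Cells received 250 nM toyocamycin, or the vehicle DMSO, and polyadenylated RNA was sequenced, so the values are messenger RNA levels and no ribosomal RNA was measured. DMSO and toyocamycin each had 2 libraries at 2 h, a single library at both 24 and 48 h, and 3 at the last time. At 10 h there was 1 DMSO library (replicate 2) and 2 toyocamycin libraries. The last time is labelled 72 h, whereas the study's text gives 96 h, and the label's time is used throughout. All groups share the transgene and the culture conditions, and differ in the drug and the time. The labels number the replicates but do not say whether they came from separate cultures, so the p-values measure the spread between these libraries, which may be technical.

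Ribosomes are assembled in the nucleolus, where RNA polymerase I transcribes the precursor of the large rRNAs with the help of UBTF, the selectivity factor subunits TAF1B and TAF1C, and RRN3, which links the polymerase to the promoter. Small nucleolar ribonucleoproteins then modify the precursor: the box C/D class (FBL, NOP56 and NOP58) methylates riboses and the box H/ACA class (DKC1, NHP2, NOP10 and GAR1) makes pseudouridine. The small subunit processome folds and cleaves the precursor on the way to the 40S subunit, later factors such as BYSL, NOB1 and PNO1 finish that subunit, and a separate set that includes the PES1, BOP1 and WDR12 complex builds the 60S subunit. Toyocamycin is known to block rRNA processing, and it was studied here as an inhibitor of the kinase CDK9, which releases paused RNA polymerase II. The comparisons below ask which messenger RNAs of this pathway were lower or higher on the drug at each time.

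Library depth ran from 8735465 to 22121364 counted reads. The shallowest library, toyocamycin replicate 2 of 10 h, also had the highest share of mitochondrially encoded reads (6.55%). The labels give 2 batches, and batch 2 holds replicate 2 of each arm at 2 and 10 h. The most abundant 100 genes took up 18.6% to 22.2% of the reads on DMSO, and 31.4% to 37.4% on toyocamycin from 10 h on. Levels are given as CPM, counts scaled to a common library total with edgeR's TMM factors. TMM sets the bulk of the genes to no change, so a difference is relative to the typical gene, and RNA per cell was not measured. In bulk libraries, less of a transcript in every cell and its loss from some of the cells cannot be told apart. The epithelial markers EPCAM (253 to 315 CPM on DMSO), KRT8, KRT18, KRT19, CDH1 and CDX2 were all present in DMSO, whereas the colon markers CDX1 and LGALS4 were at 0 to 0.21 CPM and VIL1 and CDH17 at 0.433 to 2.42 CPM. Markers of leukocytes, endothelium and hepatocytes did not pass 0.422 CPM in DMSO, and those of fibroblasts did not pass 8.08 CPM. The summed level of the 10 epithelial markers moved with the drug. It was 5989 to 6932 CPM in the DMSO libraries of 72 h and 538 to 574 CPM in the toyocamycin libraries. At 10 h it was 1762 CPM on DMSO against 4366 and 5149 CPM on toyocamycin. KRT8, the most abundant, was at 3922 to 4689 CPM on DMSO and 256 to 280.4 CPM on toyocamycin at 72 h. The markers did not all fall: CDH17 had 21, 21 and 25 reads on DMSO and 106, 71 and 71 on toyocamycin at 72 h. LGALS4 had 1, 0 and 1 reads on DMSO and 25, 36 and 61 on toyocamycin. CDX2 did not follow KRT8, with 1641, 1525 and 1319 reads on DMSO and 986, 1231 and 1157 in the smaller toyocamycin libraries. The 6 markers of other cells summed to 17.7 CPM in replicate 2 of toyocamycin at 10 h, where all 6 were detected, and to 0.642 CPM in replicate 1. At 72 h they summed to 0.372 to 1.24 CPM on DMSO and to 2.46 to 21.2 CPM on toyocamycin, the highest in replicate 2, where COL1A1 was at 12.3 CPM. The part of these markers in the changes of the members was not tested, and the counts without either library are given with the results.

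The members made up a smaller share of the reads in toyocamycin than in DMSO libraries from 10 h on, and a like share at 2 h. On DMSO, 0.796% to 1.06% of the counted reads fell on the 59 genes. On toyocamycin the share was 0.878% and 0.97% after 2 h and 0.417% and 0.527% after 10 h. The single libraries of 24 and 48 h had 0.402% and 0.642%, and those of 72 h had 0.82%, 0.694% and 0.752%. Every toyocamycin library of 10 h or later therefore lay below the DMSO library or libraries of the same time, and the 24 h library was the lowest of all 17. The share is a sum of reads in which abundant members weigh most, and it does not describe each of the 59. In replicate 1 of 72 h, for example, NCL held 25886 of the 179956 member reads on DMSO and 7475 of 110549 on toyocamycin. The share is not affected by TMM, but it moves with the share that the most abundant genes took, given above, and the part of that in the lower share was not tested.

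**Figure D1:**
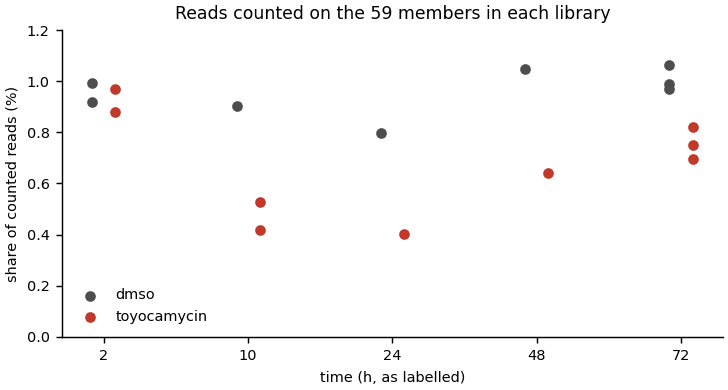
Share of all counted reads (%, vertical axis) that fell on the 59 members in each of the 17 libraries, by labelled time (h); each point is 1 library, grey for DMSO and red for toyocamycin. The points of both arms mix at 2 h, and from 10 h on every toyocamycin library (0.402% to 0.82%) lies below every DMSO library of its time (0.796% to 1.06%).

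The change passed through 3 stages: few calls at 2 h, a broad fall at 10 h and a split of the list into higher and lower members at 72 h. By edgeR's quasi-likelihood test with a Benjamini-Hochberg adjusted p under 0.1, 4 members were lower and 0 higher at 2 h, against 8.42% of all genes tested that were lower and 0.518% that were higher. At an unadjusted p under 0.05, 5 members were lower and 0 higher, and DESeq2's Wald test also called 4 lower and 0 higher. At 10 h, 39 members (66.1%) were lower and 3 (5.08%) were higher, against 24.4% and 20.4% of all genes tested. Among the 10112 genes with at least 10 counts in every library, 34.4% were lower and 28.7% higher. At 24 h, with 1 library per arm and so no test of a single gene, 20 members were more than 2-fold lower and 12 more than 2-fold higher, against 27.8% and 29.7% of all genes. At 48 h the counts were 21 and 12, against 29.9% and 38.1%. At 72 h, 25 members (42.4%) were lower and 27 (45.8%) higher, shares close to the 41.9% and 47% of all genes tested.

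The median log2 fold change of the members ran from -0.02 after 2 h to -1.05 after 10 h, where all genes had 0.02 and 0.42. The later medians were -0.30 (24 h), -0.18 (48 h) and 0.14 (72 h), beside 0.00, 0.16 and 0.18 over all genes. Without NOP2 and DDX47, 2 members with very few counts that are described below, the median was -0.41 at 48 h and -0.08 at 72 h. Other scalings moved all genes together, by as much as -2.16 for the median gene at 24 h when libraries were scaled on the mitochondrially encoded genes. Relative to the median of all genes, the members stood at -1.44 to -1.51 at 10 h and at -0.03 to -0.04 at 72 h under TMM and each of 3 other scalings (by library size alone, by the size factors of DESeq2, or by the mitochondrially encoded genes). With no filter on low counts, or with at least 10 counts required in every library, they stood at -0.63 and 0.32 at 72 h, and at -1.72 and -0.86 at 10 h. Of the 39 calls lower at 10 h, 33 were made under all 3 other scalings, but of the 3 higher calls none were. Of the 25 members lower at 72 h, 22 were lower under all 3, whereas of the 27 higher members 6 were (NOP58, RRN3, BYSL, SURF6, NOP2 and DDX47), and 11 members in all turned sign under at least 1 scaling. Each of the 52 calls at 72 h was kept in all 6 fits that left out 1 library of that time, and in each called member the 3 toyocamycin libraries lay wholly on 1 side of the 3 DMSO libraries. The direction of a member at 72 h is given relative to the typical gene, and the sign changes are named beside it.

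**Figure D2:**
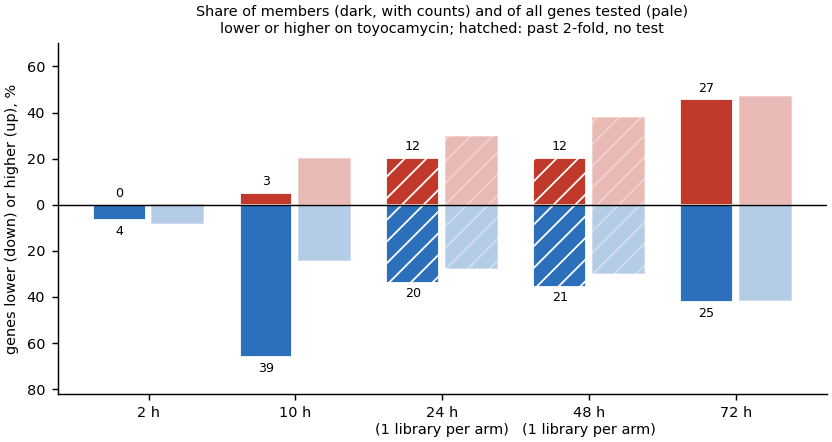
Share (%) of the 59 members (dark bars, with the number of members) and of all genes tested (pale bars) that were lower (below the line) or higher (above it) on toyocamycin, by labelled time; calls at 2, 10 and 72 h are edgeR adjusted p under 0.1, and hatched bars at 24 and 48 h are genes past 2-fold with no test. The members exceed all genes in the lower direction at 10 h (66.1% against 24.4%) and match them closely at 72 h. Among genes with at least 10 counts in every library, not drawn, 34.4% were lower at 10 h.

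The promoters of the members held a shared sequence more often than promoters at large. In RefSeq's windows from 250 bases before to 50 bases after each gene's start (GRCh38.p14), which were present for 51 of the 59 members, the palindrome CACGTG, the E-box bound by MYC family factors, occurred in 19 members (37.3%), in 9.28% of the 13101 promoters of tested genes and in 7.43% of all 27305 promoters. The other genes of the pathway, described at the end, held it in 25 of 90 promoters (27.8%). It stood in 11 of the 25 members higher at 72 h that had a window, in 6 of the 20 lower members and in 12 of the 34 members lower at 10 h. The ETS-type motif CCGGAAG, searched on both strands, occurred in 43.1% of the members' promoters against 15.9% of those of tested genes, the variant GCGGAAG in 11.8% against 10.7%, and the E-box variant CGCGTG in 31.4% against 16.3%. NOP58, NOLC1, TCOF1, DDX52, RRP12, BOP1, RRP1B and DDX18 were not in the table. These matches are letters in a window, and no binding was measured. Upstream stretches of 6 members are printed to show that the palindrome stands in members that ended higher and in members that ended lower at 72 h, with CACGTG in capitals.

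The first 3 are of members higher at 72 h under TMM and the last 3 of members lower at 72 h, each written 5′ to 3′ along the gene.
SURF6, chr9:133336377-133336438 (- strand): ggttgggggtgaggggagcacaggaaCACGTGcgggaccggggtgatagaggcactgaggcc
UTP14A, chrX:129905914-129905958 (+ strand): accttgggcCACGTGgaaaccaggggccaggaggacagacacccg
IMP4, chr2:130342664-130342729 (+ strand): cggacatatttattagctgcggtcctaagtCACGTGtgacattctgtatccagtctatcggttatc
UTP20, chr12:101280065-101280104 (+ strand): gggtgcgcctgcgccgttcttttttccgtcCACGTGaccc
NAT10, chr11:34105584-34105628 (+ strand): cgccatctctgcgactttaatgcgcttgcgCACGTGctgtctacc
UTP18, chr17:51260427-51260492 (+ strand): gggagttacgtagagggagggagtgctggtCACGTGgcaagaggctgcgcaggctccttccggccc

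SURF6, a nucleolar factor of 60S assembly, UTP14A and IMP4, which are processome subunits, had log2 fold changes of 1.92, 1.45 and 0.66 at 72 h. UTP20 and UTP18, also of the processome, and NAT10, which acetylates cytidines of 18S rRNA, had -2.11, -0.59 and -1.61. The palindrome began 10 (UTP20), 15 (NAT10) and 89 (UTP18) bases before the annotated start in the lower members, and 203 to 241 bases before it in the first 3. Only matches wholly before that start were printed, for the 3 largest rises and the 3 largest falls among members with such a match. BYSL, NOP2, LTV1, PNO1, WDR43 and GNL2, which were higher at 72 h, hold the palindrome later in the window and are not shown. So does RRP9, which was lower (log2 fold change -1.60), and it is not shown either. The distances therefore do not compare higher with lower members. IMP4 turned sign under 1 other scaling.

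After 2 h, the members that fell were BYSL, UTP15, WDR43 and NIP7, all 4 of which were higher at 72 h, as were 47% of all genes tested. BYSL, a late 40S factor that joins pre-40S particles, was measured at 58 and 52.9 CPM on DMSO and 26.5 and 27.9 CPM on toyocamycin (log2 fold change -1.03 ± 0.15 (SE), adjusted p = 0.000408, edgeR). Both toyocamycin libraries lay at about the same level, below both DMSO libraries. UTP15, a processome subunit that also supports RNA polymerase I transcription, stood at 23.6 and 37.5 CPM on DMSO and 15.5 and 17.3 CPM on toyocamycin (log2 fold change -0.90 ± 0.22 (SE), adjusted p = 0.0178, edgeR). Both arms were apart, but the DMSO libraries differed more from each other than the toyocamycin ones did. WDR43, another processome subunit, was at 86.9 and 131.3 CPM on DMSO and 62.5 and 76.4 CPM on toyocamycin, and NIP7, which acts in rRNA processing, at 49.7 and 56 CPM on DMSO and 38.3 and 38.1 CPM on toyocamycin, with log2 fold changes of -0.65 ± 0.19 and -0.47 ± 0.14 (SE) and edgeR adjusted p of 0.0514 and 0.0715. BYSL was the member called in all 4 fits that left out 1 library of 2 h. Without replicate 2 of DMSO the calls were BYSL and IMP3, without replicate 1 of toyocamycin BYSL lower and FBL higher, and without replicate 2 of toyocamycin UTP15, WDR43 and BYSL. With libraries scaled on the mitochondrially encoded genes, 0 members were called.

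The core proteins of the nucleolus were close to their DMSO level at 2 h. NPM1, the histone chaperone of the nucleolar granular zone, was at 765 and 891 CPM on DMSO and 821 and 978 CPM on toyocamycin, and NCL (nucleolin), which binds the rRNA precursor, at 1211 and 1485 CPM on DMSO and 1173 and 1411 CPM on toyocamycin. UBTF, which opens rDNA chromatin for RNA polymerase I, was at 321 and 347 CPM on DMSO and 309 and 350.4 CPM on toyocamycin. In each of these 3 the arms overlapped and the test was not passed (edgeR adjusted p = 0.808, 0.923 and 1). FBL, the methyltransferase of box C/D particles, was at 346 and 438 CPM on DMSO and 396 and 639 CPM on toyocamycin, where replicate 2 of toyocamycin stood above the rest (edgeR adjusted p = 0.397).

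After 10 h the fall was deepest in the small subunit processome, where 17 of 20 members were lower and 0 higher, with a median log2 fold change of -1.67 over the 20. WDR3 was at 73 CPM on DMSO and 9.99 and 11.5 CPM on toyocamycin (log2 fold change -2.77 ± 0.25 (SE), adjusted p = 1.43e-06, edgeR). The processome subunits DDX52 (-2.52), WDR75 (-2.42), UTP20 (-2.42), NAT10 (-2.33), UTP6 (-2.28) and WDR36 (-2.23) also fell more than 4-fold. IMP3, IMP4 and DDX47 were the 3 processome members that did not pass, at 0.03, -0.24 and 0.50. The 17 processome calls were 15 with DESeq2's size factors, 18 with library size alone and 17 with mitochondrial scaling, with 0 higher calls under each. Of all genes tested, 20.4%, 34.4% and 32.5% were lower under these scalings.

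The 60S factors fell in a like manner at 10 h, with 14 of 17 lower, 1 higher and a median of -1.08. The lowest was FTSJ3, a methyltransferase-like factor of pre-rRNA processing, at 104 CPM on DMSO and 12.5 and 17.1 CPM on toyocamycin (log2 fold change -2.82 ± 0.22 (SE), adjusted p = 5.97e-07, edgeR). DDX56, an RNA helicase, was at 89 CPM on DMSO and 12.5 and 13.5 CPM on toyocamycin, and RRP1B, a nucleolar protein related to RRP1, at 215 CPM on DMSO and 42.8 and 42.1 CPM on toyocamycin. Both toyocamycin libraries of these 3 genes lay far below the DMSO library. Among the late 40S factors, TSR1 (-2.13) and RRP12 (-2.14) were lower and the other 4 did not pass. BYSL, for example, was at 45.4 CPM on DMSO and 47.9 and 25.2 CPM on toyocamycin (edgeR adjusted p = 0.385), with the DMSO level between both toyocamycin libraries.

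The ribonucleoprotein, scaffold and RNA polymerase I groups moved less evenly at 10 h. Of the box C/D proteins NOP58 was lower (log2 fold change -0.87 ± 0.25 (SE), adjusted p = 0.0133, edgeR) and FBL higher, and of the H/ACA proteins GAR1 was lower (-0.97) and NHP2 higher. FBL was measured at 423 CPM on DMSO and 616 and 919 CPM on toyocamycin and NHP2, which binds the H/ACA RNA, at 73.1 CPM on DMSO and 159 and 169 CPM on toyocamycin, so both toyocamycin libraries were above the DMSO library for each. FBL turned sign under 1 other scaling, and FBL and NOP2 were not called higher without replicate 2 of toyocamycin. NCL (1138 CPM on DMSO and 719 and 808 CPM on toyocamycin) and DDX21, a helicase that links RNA polymerase I and II transcription, were lower among the 5 scaffold proteins. UBTF and RRN3 were lower among the 4 initiation factors, at 297 CPM on DMSO and 113 and 139 CPM on toyocamycin for UBTF and 88.8 CPM on DMSO and 42.5 and 34 CPM on toyocamycin for RRN3, with edgeR adjusted p of 0.000344 and 0.000885.

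The 10 h comparison rests on 1 DMSO library, of batch 2. Against the toyocamycin library of the same batch alone (without replicate 1), 46 members were lower and 3 higher, against 27% and 39.1% of all genes in that fit. With the replicate number as a block, which is the batch at 2 and 10 h, replicate 1 of toyocamycin has no partner at 10 h. It adds nothing to the effect there, so the block compares the same 2 libraries as the fit without replicate 1. The median over the members was -1.05 in both fits. With batch itself as a term over the 17 libraries, 40 were lower and 4 higher, against 27.2% and 37.8%. Without replicate 2 of toyocamycin, the library with the fewest reads, 37 were lower and 2 higher, against 28% and 24% of all genes, and the median over the members was -1.02 beside 0.00 over all genes.

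**Figure D3:**
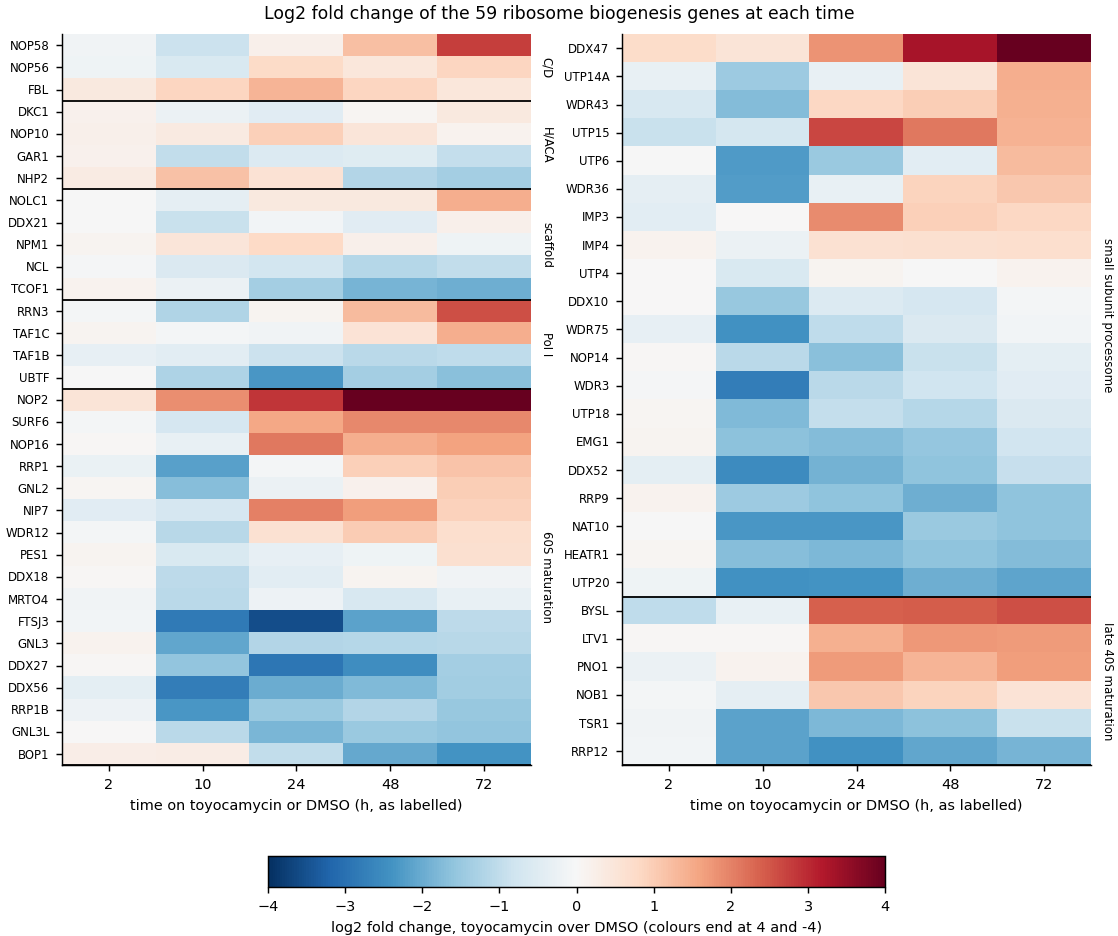
Log2 fold change of toyocamycin over DMSO (colour, red higher and blue lower, ending at 4 and -4) for the 59 members (lines) at each labelled time in h (columns), grouped by role and ordered within a role by the value at 72 h; 24 and 48 h are 1 library per arm. At 10 h the processome and 60S blocks are mostly blue, with a lowest value of -2.82, and at 72 h each large block is divided between red and blue.

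At 24 and 48 h the list held members more than 2-fold above DMSO and members more than 2-fold below it. Of the 9 that were higher at both times, UTP15, NIP7 and SURF6 had been called lower at 10 h, and of the 16 that were lower at both times all but TCOF1 had. More than 2-fold lower at both times were 16 members: TCOF1, UBTF, UTP20, HEATR1, RRP9, DDX52, NAT10, EMG1, TSR1, RRP12, RRP1B, GNL3, GNL3L, DDX27, DDX56 and FTSJ3. More than 2-fold higher at both times were 9: UTP15, DDX47, BYSL, PNO1, LTV1, NOP2, NOP16, NIP7 and SURF6. How many of all genes passed 2-fold at both times was not counted. FTSJ3 had the lowest fold change at 24 h (log2 -3.54), with 92 CPM on DMSO and 7.84 CPM on toyocamycin at 24 h and 101 CPM on DMSO and 22.5 CPM on toyocamycin at 48 h, when the helicase DDX27 was lower still (-2.47). BYSL went the other way, with 41.5 CPM on DMSO and 216 CPM on toyocamycin and then 65.7 CPM on DMSO and 346 CPM on toyocamycin. NIP7, one of the members lower at 2 h, was at 44.4 CPM on DMSO and 176 CPM on toyocamycin at 24 h. RRN3 was level with DMSO at 24 h (77.1 CPM on DMSO and 82.8 CPM on toyocamycin) and above it at 48 h (84.3 CPM on DMSO and 197 CPM on toyocamycin). These are differences between single libraries, with no replicate check, and the counts depend on the scaling. With library size alone, 36 members were more than 2-fold lower and 4 higher at 24 h, against 6993 and 2358 of the 14491 genes tested.

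At 72 h all 3 box C/D proteins were higher, as were 47% of all genes tested. NOP58, a core protein of the particle, showed the largest rise of the 3, from 73.9, 71 and 86.2 CPM on DMSO to 588, 443 and 494 CPM on toyocamycin (log2 fold change 2.75 ± 0.16 (SE), adjusted p = 3.04e-10, edgeR). Its partner NOP56 was at 191, 199 and 211 CPM on DMSO and 372, 328 and 361 CPM on toyocamycin (log2 fold change 0.85 ± 0.11 (SE), adjusted p = 3.98e-06, edgeR). FBL was at 427, 439 and 389 CPM on DMSO and 625, 529 and 511 CPM on toyocamycin (log2 fold change 0.44 ± 0.17 (SE), adjusted p = 0.0235, edgeR). In all 3 every toyocamycin library was above every DMSO library, by a wide margin for NOP58 and a narrow one for FBL, whose direction turned with library size or mitochondrial scaling, as that of NOP56 did with the latter.

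The box H/ACA proteins did not move as a unit at 72 h: NHP2 and GAR1 were lower, DKC1 higher and NOP10 was not called. NHP2 was measured at 84.5, 81.3 and 63.6 CPM on DMSO and 30.5, 23 and 33.1 CPM on toyocamycin (log2 fold change -1.37 ± 0.17 (SE), adjusted p = 1.99e-06, edgeR), having been higher at 10 h. GAR1 was at 69.1, 71.5 and 86.7 CPM on DMSO and 43.8, 36.6 and 34.2 CPM on toyocamycin (log2 fold change -0.96 ± 0.14 (SE), adjusted p = 8.13e-06, edgeR). For both genes the 3 toyocamycin libraries lay well below the 3 DMSO libraries. DKC1 (dyskerin), the pseudouridine synthase, was at 156, 167 and 187 CPM on DMSO and 241, 204 and 212 CPM on toyocamycin (log2 fold change 0.40 ± 0.12 (SE), adjusted p = 0.00729, edgeR), and this direction turned with library size or mitochondrial scaling. NOP10, the smallest of the 4 proteins, was at 35.7, 40 and 36.9 CPM on DMSO and 42.6, 37.1 and 42.8 CPM on toyocamycin, with overlapping arms.

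Among the scaffold proteins, TCOF1 and NCL were lower and NOLC1 higher at 72 h, whereas NPM1 and DDX21 were not called. TCOF1 (treacle), which links RNA polymerase I transcription to modification, fell from 404, 363 and 314 CPM to 87.2, 88.6 and 95.5 CPM (log2 fold change -1.96 ± 0.14 (SE), adjusted p = 2.31e-09, edgeR). NOLC1, a related phosphoprotein that chaperones snoRNPs, rose from 271, 273 and 295 CPM to 798, 728 and 713 CPM (log2 fold change 1.45 ± 0.12 (SE), adjusted p = 1.19e-08, edgeR). These 2 partners of the nucleolar scaffold thus ended on opposite sides of DMSO, with no overlap in either. NCL was at 1283, 1295 and 1469 CPM on DMSO and 735, 621 and 658 CPM on toyocamycin (log2 fold change -0.97 ± 0.14 (SE), adjusted p = 7.46e-06, edgeR). NPM1 was at 904, 999 and 1200 CPM on DMSO and 1000, 835 and 886 CPM on toyocamycin with overlapping arms (log2 fold change -0.16 ± 0.14 (SE), edgeR adjusted p = 0.31). NPM1 has near-identical processed copies elsewhere in the genome, so its counts are uncertain.

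The initiation factors of RNA polymerase I divided 2 against 2 at 72 h, where 47% of all genes tested were higher and 41.9% lower. RRN3 rose from 88, 93.8 and 106 CPM on DMSO to 627, 514 and 546 CPM on toyocamycin (log2 fold change 2.59 ± 0.14 (SE), adjusted p = 1.26e-10, edgeR), and TAF1C rose to 93.7, 137 and 147 CPM from 49.5, 52.8 and 37.9 CPM. UBTF was lower, at 270.5, 242 and 233 CPM on DMSO and 73.5, 77.6 and 78.3 CPM on toyocamycin (log2 fold change -1.67 ± 0.12 (SE), adjusted p = 3.5e-09, edgeR), and TAF1B was lower at 8.87, 7.85 and 10.2 CPM on DMSO and 5.41, 4.73 and 2.95 CPM on toyocamycin. The levels of RRN3 and UBTF changed places, since UBTF was the more abundant of the 2 in every DMSO library and RRN3 in every toyocamycin library of 72 h, before any correction for gene length. RRN3 has near-identical pseudogene copies, so its counts are uncertain.

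**Figure D4:**
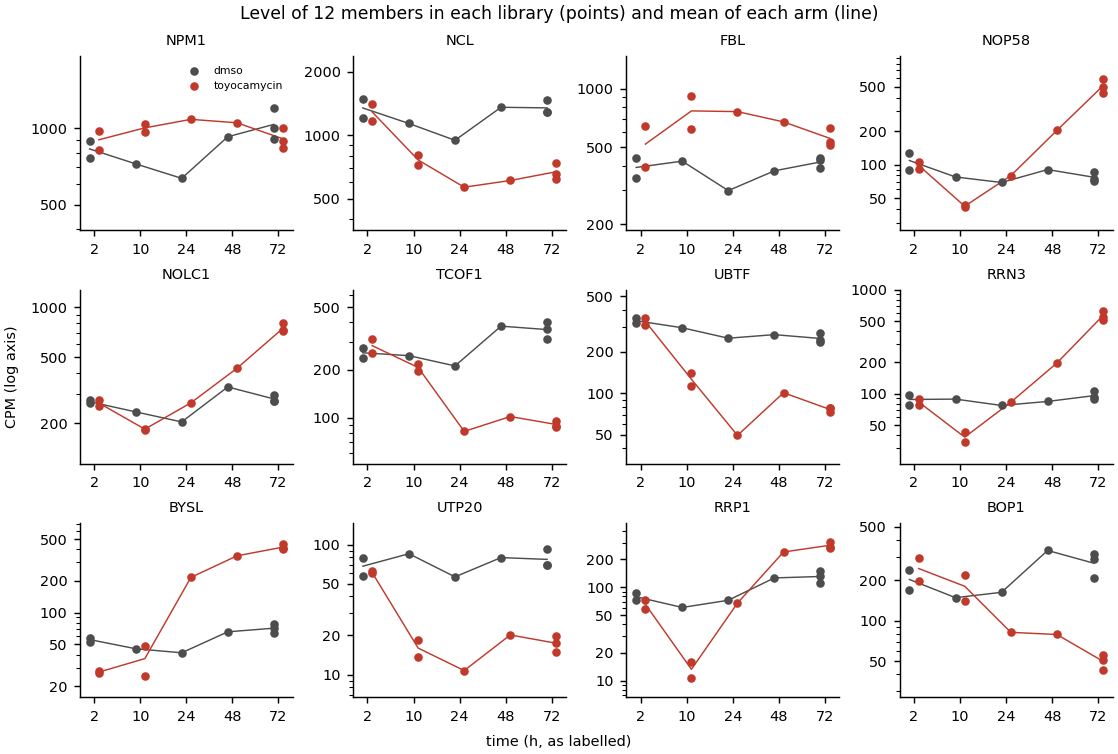
Level in CPM (vertical, log axis, scaled separately in each panel) of 12 members in each of the 17 libraries (points) by labelled time (h), with the mean of each arm as a line, grey for DMSO and red for toyocamycin. RRN3, NOP58 and RRP1 dip at 10 h and end above DMSO, UTP20 and UBTF fall and stay below, TCOF1 and BOP1 fall late, and NPM1 differs little.

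The processome, which had fallen nearly as a whole at 10 h, held 9 lower (45%) and 8 higher (40%) members at 72 h. These shares are near the 41.9% and 47% of all genes tested. The median of the processome was -0.09, beside 0.18 over all genes. UTP20, a large scaffold repeat protein, had the largest fall, from 70, 69.2 and 91.7 CPM on DMSO to 19.8, 15 and 17.5 CPM on toyocamycin (log2 fold change -2.11 ± 0.17 (SE), adjusted p = 1.01e-08, edgeR). HEATR1 (-1.74), NAT10 (-1.61) and RRP9 (-1.60) fell more than 2-fold as well, and DDX52, EMG1, UTP18, WDR3 and NOP14 fell less, by 0.92 to 0.39 on the log2 scale. On the higher side, UTP14A went from 55.1, 57.7 and 61.5 CPM to 154, 155 and 156 CPM (log2 fold change 1.45 ± 0.12 (SE), adjusted p = 1.21e-08, edgeR). WDR43 (1.42), UTP15 (1.40), UTP6 (1.27), WDR36 (1.08), IMP3 (0.84) and IMP4 (0.66) were higher too, of which IMP3 and IMP4 turned sign under 1 other scaling. Of the exon bases of EMG1 and IMP3, 33.3% and 41.9% are free of genes on either strand, and whether the counting used strand is not given in the sources used here, so their levels are uncertain. With mitochondrial scaling the processome held 12 lower and 1 higher member, against 7362 lower and 4204 higher of the 14491 genes tested.

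DDX47, a helicase of early cleavage, was the eighth higher processome member, on very few reads. Its 3 DMSO libraries of 72 h held 0, 0 and 2 reads and its toyocamycin libraries 17, 5 and 12. The mean level was thus at least 7.62-fold higher, taking 3 reads per DMSO library as the floor (edgeR adjusted p = 7.56e-05). That bound is for the mean, and the toyocamycin library with 5 reads lay closer to the floor. NOP2, a cytosine methyltransferase of the 60S pathway, had 8, 4 and 0 reads on DMSO and 253, 259 and 234 on toyocamycin at 72 h (log2 fold change 6.94 ± 0.41 (SE), adjusted p = 2.7e-10, edgeR). Without replicate 1 or replicate 3 of DMSO the log2 value for NOP2 was 7.94 or 6.32. All 3 toyocamycin libraries were far above DMSO for NOP2 and less so for DDX47. Of the exon bases of NOP2 and DDX47, 45.6% and 63.5% are free of other genes on the same strand, and the authors' counting leaves out reads that several genes share, so the levels of both are uncertain.

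Late 40S maturation held 4 higher and 2 lower members at 72 h, where 47% of all genes tested were higher and 41.9% lower. BYSL, lower at 2 h, was at 77.2, 72.1 and 64.1 CPM on DMSO and 444, 406 and 407 CPM on toyocamycin at 72 h (log2 fold change 2.59 ± 0.12 (SE), adjusted p = 3.12e-11, edgeR), with no overlap between arms and a higher call under every scaling. LTV1, an export adaptor of the pre-40S particle, was at 14, 13 and 18.8 CPM on DMSO and 52.6, 44.1 and 48.1 CPM on toyocamycin, and PNO1, which guides the last cut of 18S rRNA, at 15.3, 14.4 and 21.2 CPM on DMSO and 58.1, 49.4 and 50.8 CPM on toyocamycin. NOB1, the nuclease that makes that cut, was at 114, 122 and 109.7 CPM on DMSO and 169, 158 and 170.4 CPM on toyocamycin (0.55), a direction that turned under 2 other scalings. RRP12 fell from 117, 113 and 95.9 CPM to 31.5, 28.1 and 28.4 CPM (log2 fold change -1.86 ± 0.14 (SE), adjusted p = 5.03e-09, edgeR), and TSR1 was lower as well (-0.91). LTV1 shares exons with another gene on its strand, with 65.3% of its exon bases free.

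Of the 17 factors of 60S maturation, 8 were higher and 8 lower at 72 h (47.1% each). Of all genes tested, 47% were higher and 41.9% lower. The 3 proteins of the PES1, BOP1 and WDR12 complex did not move together. BOP1 fell from 312, 285 and 207 CPM on DMSO to 43.3, 50.9 and 56 CPM on toyocamycin (log2 fold change -2.39 ± 0.20 (SE), adjusted p = 1.8e-08, edgeR), the largest fall of all 59 members. PES1 was higher at 209.9, 212 and 179 CPM on DMSO and 309.5, 299 and 301 CPM on toyocamycin (log2 fold change 0.63 ± 0.12 (SE), adjusted p = 0.000107, edgeR), and WDR12 higher at 50.7, 57 and 73.2 CPM on DMSO and 103, 87.7 and 92.6 CPM on toyocamycin (log2 fold change 0.68 ± 0.16 (SE), adjusted p = 0.000773, edgeR). The toyocamycin libraries of BOP1 lay far below DMSO, while those of PES1 and WDR12 lay moderately above, and the last 2 directions turned under 1 other scaling.

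The paralogs RRP1 and RRP1B ended apart. RRP1 was at 148, 133 and 111 CPM on DMSO and 266, 304 and 272 CPM on toyocamycin (log2 fold change 1.14 ± 0.14 (SE), adjusted p = 2.13e-06, edgeR) and RRP1B at 243, 238 and 239.7 CPM on DMSO and 81.3, 81 and 83.3 CPM on toyocamycin (log2 fold change -1.52 ± 0.11 (SE), adjusted p = 4.14e-09, edgeR). Both had fallen at 10 h, with log2 fold changes of -2.18 and -2.34. The GTPases of the GNL family were likewise divided, with GNL2 higher (0.99) and GNL3 (nucleostemin, -1.10) and GNL3L (-1.58) lower. SURF6 was at 135, 129.6 and 106 CPM on DMSO and 482, 439 and 447 CPM on toyocamycin (log2 fold change 1.92 ± 0.14 (SE), adjusted p = 2.82e-09, edgeR), higher under every scaling. NOP16 (1.62) and NIP7 (0.93) were higher, and DDX56 (-1.38), DDX27 (-1.37), FTSJ3 (-1.06) and MRTO4 (-0.29) lower. GNL2 and NIP7 turned sign with 1 other scaling and so did MRTO4. DDX18, a helicase of this group, was not called.

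Read from 10 to 72 h, the members followed several courses. The courses were not counted over all genes, so their numbers are not known to be particular to the members. Lower at 10 h and higher at 72 h were 13: NOP58, RRN3, UTP6, UTP14A, UTP15, WDR36, WDR43, PES1, WDR12, RRP1, GNL2, NIP7 and SURF6. UTP6 crossed the widest range of these in the processome, at 45 CPM on DMSO and 9.07 and 9.51 CPM on toyocamycin at 10 h and 45, 50.8 and 61.1 CPM on DMSO and 133, 114 and 124 CPM on toyocamycin at 72 h. Lower at both times were 21, among them UBTF, NCL, GAR1, UTP20, HEATR1, NAT10, RRP12, FTSJ3 and DDX56. Lower at 10 h and not called at 72 h were DDX21, UTP4, WDR75, DDX10 and DDX18. Higher at 72 h after no call at 10 h were 12: NOP56, DKC1, NOLC1, TAF1C, IMP3, IMP4, DDX47, BYSL, NOB1, PNO1, LTV1 and NOP16. TCOF1, TAF1B and BOP1 were lower at 72 h after no call at 10 h, and NOP10 and NPM1 were called at neither time. FBL and NOP2 were higher at both times, and NHP2 was higher at 10 h and lower at 72 h. The 10 h libraries were fitted with all 17 and the 72 h libraries with 14, and no DMSO library serves both times.

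**Figure D5:**
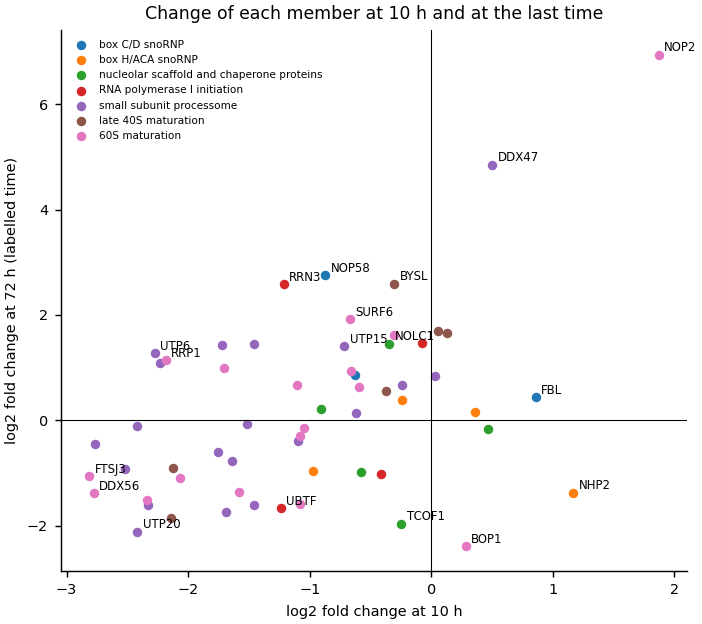
Log2 fold change of each of the 59 members at 10 h (horizontal) and at the labelled 72 h (vertical), coloured by role, with 18 members named. Most points lie left of zero and are spread evenly above and below the horizontal line, NHP2 and BOP1 sit at lower right, and NOP2 and DDX47, which have very few reads on DMSO, at the top.

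The effect at 72 h was compared with that at 2 h by the test of the difference (edgeR). It was higher at 72 h for 25 members (42.4%) and lower for 22 (37.3%), shares near the 38% and 38.1% of all genes tested. The largest such difference outside NOP2 and DDX47 was that of BYSL (log2 difference 3.62 ± 0.19 (SE), edgeR adjusted p = 4.52e-10), followed by NOP58 (2.90) and RRN3 (2.67). BOP1 (-2.66) and TCOF1 (-2.11) differed most in the lower direction. For NPM1, FBL and DKC1 the difference was -0.28, 0.04 and 0.22 and did not pass. With the replicate pairs as a block, WDR3 and DDX52 were added, giving 24 lower and 25 higher.

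The vehicle alone also changed over time. Between DMSO at 2 h and DMSO at 72 h, 18 members (30.5%) were higher and 3 lower at the later time, against 10.2% and 11.4% of all genes tested. RRP9, a box C/D associated processome protein, went from 53.7 and 37.6 CPM to 89.8, 91.3 and 76.3 CPM (log2 fold change 0.91 ± 0.18 (SE), adjusted p = 0.00344, edgeR). DDX10 (0.82), RRP1 (0.72), NOB1 (0.70) and DDX56 (0.70) were also higher, while NOP58, UBTF and DDX47 were lower. The DMSO libraries at 2 h come from both batches and those at 72 h from batch 1. With batch as a term 0 members were lower, where 1234 of 16521 genes tested were. Without replicate 2 of DMSO at 72 h 0 members were lower as well, where 924 of 14483 genes were. Without replicate 1 or replicate 2 of DMSO at 72 h, 11 members were higher, and with library size alone 7 (2 with mitochondrial scaling). Of all genes, 1072 of 14489 were higher without that replicate 1 and 984 of 14483 without that replicate 2. Of the 14491 genes tested, 936 were higher with library size alone and 563 with mitochondrial scaling.

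Other genes of the pathway, 104 in 4 lists drawn up by function, give a wider view at 72 h. Of 46 other large subunit factors, 33 were higher and 10 lower, against the 47% and 41.9% of all genes above. PPAN, a factor of early 60S particles, had the largest rise of that list (log2 fold change 3.32 ± 0.25 (SE), edgeR adjusted p = 6.05e-09) and the helicase DDX54 the largest fall (-3.14). Of 32 other small subunit factors, 14 were higher and 13 lower, from UTP3 (4.50) to PWP2 (-3.78). Among 11 RNA polymerase I subunits and other initiation factors, 7 were higher and 2 lower, with POLR1F at 2.64 and the largest subunit POLR1A at -1.22. Of 15 genes of the RNA exosome, which trims the precursor, and its cofactors, 5 were higher and 8 lower, with EXOSC6 at 1.94 and the exonuclease XRN2 at -2.35. With mitochondrial scaling the large subunit list held 14 higher and 13 lower genes and the small subunit list 4 and 18, and with library size alone 27 and 15, and 12 and 18. Of the 14491 genes tested, 4204 were higher and 7362 lower with mitochondrial scaling. With library size alone, 5657 were higher and 7297 lower.

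At 10 h more genes of each of these lists were lower than higher, under TMM and each of the 3 other scalings. Lower were 21 of the 46 large subunit factors, 18 of the 32 small subunit factors, 6 of the 11 RNA polymerase I genes and 9 of the 15 exosome genes, and higher were 3, 1, 3 and 2. All genes tested had 24.4% lower and 20.4% higher under TMM, and 20.4% and 25.8% with DESeq2's size factors. With library size alone they had 34.4% lower and 11.3% higher, and with mitochondrial scaling 32.5% and 3.04%. Under these last 2 scalings the excess of lower over higher calls was thus shared by all genes. At 2 h, 14 of the 104 genes (13.5%) were lower and 0 higher by edgeR, against 8.42% and 0.518% of all genes. At an unadjusted p under 0.05, 20 (19.2%) were lower and 0 higher, against 12.6% and 2.39%, by the same tool. The median over the 104 genes was -0.67 at 10 h and 0.63 at 72 h, where that of the 59 members was -1.05 and 0.14.

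Levels per kilobase of exon in DMSO spanned the list widely. FBL (median over the DMSO libraries 190 CPM per kilobase), NCL (144.5) and NPM1 (108) had the highest values, followed by NOLC1 (68.5) and DDX21 (61.2), and TAF1B and DDX10 were at 2.19 and 2.16. NOP2 and DDX47 were below 0.1. At 10 h, FBL, NCL, NPM1, NOLC1 and DDX21 had log2 fold changes of 0.86, -0.58, 0.47, -0.35 and -0.90, of which FBL, NCL and DDX21 were called.

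Small nucleolar RNAs are processed from the introns of some of these genes, and 7 members hold annotated ones: NOP56 (5), NOP58 (4), DKC1 (2), NCL (3), WDR43 (3), TSR1 (2) and GNL3 (6). Of these 7, 5 were lower at 10 h and 0 higher, where 24.4% and 20.4% of all genes were. At 72 h, where 41.9% of all genes were lower and 47% higher, 3 were lower (NCL, TSR1 and GNL3) and 4 higher (NOP56, NOP58, DKC1 and WDR43), with the sign changes of NOP56 and DKC1 given above. GNL3 went from 146, 157 and 197 CPM on DMSO to 85.5, 66.6 and 75.7 CPM on toyocamycin at 72 h, and at 10 h it was at 89.7 CPM on DMSO and 23.8 and 18.8 CPM on toyocamycin. WDR43 was at 103 CPM on DMSO and 31.5 and 31.3 CPM on toyocamycin at 10 h and at 124, 117 and 137 CPM on DMSO and 358, 304 and 331 CPM on toyocamycin at 72 h. Both host genes fell together at 10 h and stood on opposite sides of DMSO at 72 h. The small nucleolar RNAs themselves carry no poly(A) tail and were not measured here.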

How the data were processed

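Polyadenylated RNA of 17 YB5 libraries was sequenced as paired ends, and the authors aligned the reads with STAR 2.7.5a and deposited raw counts per gene, which were used here. A second deposited table holds the authors' own log2 fold changes and p-values and was not used. In the count table, 1 column that matches no sample was not used here. Whether the counting used strand is not given in the sources used here.

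Counts were tested with edgeR 4.0.16 in R 4.3.3 (filterByExpr, TMM, quasi-likelihood test in its legacy form, Benjamini-Hochberg over all genes tested, called at an adjusted p under 0.1). The 14 libraries of 2, 24, 48 and 72 h were fitted together (14491 genes), and 10 h was tested in a fit of all 17 (16521 genes), since its DMSO arm has 1 library. At 24 and 48 h, where each arm has 1 library, members past 2-fold were counted with no test. CPM levels use the 17-library TMM factors. A floor of 3 counts per library was used, which covers counting error only.

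The members and lists were chosen with earlier results of these data known. All members could be named. Values per library were set for NPM1, NCL, FBL, NOP56, DKC1, UBTF and RRN3 and for the largest rise and fall over the list at 2 and 72 h and at 72 h in each role group of 4 or more, and other members shown per library were picked after their values were seen. Replicate numbers pair the libraries of 2 h, where the labels tie them to batch (r = 0.307 between deviations), and not those of 72 h (r = -0.105, 0.0427 and -0.0876).

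Alternatives were DESeq2 1.42.0 size factors and Wald test, library size alone, mitochondrially encoded genes as the scale, no filter, at least 10 counts in every library, the edgeR 4 form of the test, batch as a term, the replicate block, an adjusted p under 0.05, and each library left out. Leaving out NOP2 and DDX47 was chosen after seeing the data. The tests were tried on simulated counts first. Other steps used Python 3.11.15, pandas 2.3.3, numpy 2.4.6, scipy 1.17.1 and matplotlib 3.10.9.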

Additional observations from a re-analysis of the deposited data

Results flagged for a closer look

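The effect of toyocamycin differed between 2 h and 72 h, by edgeR's quasi-likelihood test of the difference itself, for 25 members upward (42.4%) and 22 downward (37.3%), shares near the 38% and 38.1% of all genes tested, so the counts say nothing particular to the members. Among the members given per library, the log2 difference was higher at 72 h for NOP2 (6.41), BYSL (3.62), RRN3 (2.67), NOLC1 (1.47) and NOP56 (1.02). It was lower for BOP1 (-2.66), TCOF1 (-2.11), UTP20 (-1.96), RRP12 (-1.75), NHP2 (-1.71), UBTF (-1.65) and NCL (-0.91). For DDX47 the fitted difference was 4.12, which is no measure of size, since its DMSO libraries of 72 h were at the floor and its effect there is known only as a mean level at least 7.62-fold higher. NOP2 also rests on few reads in DMSO. The 2 h libraries come from both batches whereas those of 72 h come from batch 1.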

How the results depend on the processing

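The number of members called lower at 10 h and 72 h kept within 1.5 times of the reported count under every alternative run, whereas counts of higher members and medians moved with the scaling. The cause was not tested. With mitochondrial scaling, 0 members were lower at 2 h, 0 were higher at 10 h, 6 were higher at 72 h and 5 were higher by the difference between 72 h and 2 h. Of all genes, 87 of 14491 were lower at 2 h and 503 of 16521 higher at 10 h. Of the 14491, 4204 were higher at 72 h and 2810 by the difference. Past 2-fold were 48 lower and 0 higher at 24 h and 41 lower and 2 higher at 48 h, and between the DMSO times 0 were lower and 2 higher. Of the 14491 genes tested, 10305 were past 2-fold lower and 1302 higher at 24 h, and 8560 and 2910 at 48 h. Between the DMSO times, 36 of them were lower and 563 higher. The medians were -0.16, -2.21, -2.57, -2.03 and -0.92 at 2, 10, 24, 48 and 72 h. With library size alone, 1 was higher at 10 h, 36 were lower and 4 higher at 24 h, 7 higher at 48 h, and between the DMSO times 5 were lower and 7 higher, with medians of -1.48, -1.31, -0.79 and -0.46 from 10 to 72 h. Over all genes, 1872 of 16521 were higher at 10 h. Of the 14491, 6993 were past 2-fold lower and 2358 higher at 24 h, and 4444 higher at 48 h. Between the DMSO times, 2644 were lower and 936 higher. With DESeq2's size factors the medians were -0.84, -0.15, 0.056 and 0.46, and by its Wald test -0.84 at 10 h and 0.46 at 72 h. The 10 h median was -0.94 with at least 10 counts in every library and -0.98 with batch as a term, where 0 were lower between the DMSO times. At an adjusted p under 0.05, 2 were lower at 2 h and 1 between the DMSO times. Without NOP2 and DDX47 the medians were -1.08, -0.41 and -0.077 at 10, 48 and 72 h. FBL reversed at 72 h with library size (-0.16) and mitochondrial scaling (-0.65), as did DKC1 (-0.21 and -0.65), and NOP56 with the latter (-0.20).

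With 1 library left out, 1 to 4 were lower and 0 to 1 higher at 2 h, the 10 h median ranged from -1.05 to -1.02, and between the DMSO times 0 to 5 were lower and 11 to 14 higher. With the replicate block, 4 were lower and 0 higher at 2 h, 25 and 27 at 72 h, and 24 and 25 by the difference between times. At 10 h the block compares 1 library per arm. The 10 h comparison has 1 DMSO library, and 24 and 48 h have 1 library per arm, so these times have little or no replicate check.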

Other observations

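Longer members tended to have lower fold changes. Across the 59 members, the Spearman rho between gene length on the genome and the log2 fold change was -0.392 at 10 h, where that over 16491 genes was -0.0584 and that over the 7783 more abundant genes -0.254. At 72 h it was -0.242 for the members and -0.137 over 14462 genes. These are correlations across genes, which share the libraries and are not independent replicates, and no test was made.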
